A study of Homo sapiens with 4 samples.

Results

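Antisense genes were compared in MCF10A, an immortal line of human breast epithelium that does not form tumours, between wild type cells and cells that stably overexpress the heat shock transcription factor HSF1 (HSF1-pLVX). The 261 genes described here were chosen by their name and by their read counts. Each has a symbol ending in -AS1 and holds at least 20 raw counts in both wild type libraries or in both HSF1-pLVX libraries. They are 261 of the 1633 genes with such a name in a count table of 63856 genes. Each was set beside its sense partner, the gene named before -AS1, which was not used for the choice. A partner was found for 259 of them, since HOXB-AS1 and HOXC-AS1 are named after gene clusters.

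RNA-seq was performed on total RNA depleted of ribosomal RNA, with 2 libraries of unmodified wild type cells and 2 of HSF1-pLVX cells. The HSF1-pLVX cells were transduced with lentiviruses carrying the human HSF1 coding sequence in the pLVX-Puro plasmid and selected with puromycin, and all groups were MCF10A cells. Cells with the empty vector were not analysed here, so an effect of HSF1 and an effect of transduction and selection cannot be told apart. The libraries held between 18688109 and 24184285 counts, and the antisense genes took between 0.106 and 0.124% of them. HSF1 itself reached 200.1 and 188.9 CPM (counts per 1e+06 counts, after TMM scaling) in wild type cells and 981 and 997 CPM in HSF1-pLVX cells. All 10 markers listed for basal mammary epithelium were above 1 CPM on average. Their summed level was 18092 to 18865 CPM in wild type and 10618 to 11314 CPM in HSF1-pLVX cells. Their changes were mixed, with TP63 (log2 fold change 3.48), KRT5 (1.12), EGFR (0.83) and ITGA6 (0.44) higher. The other 6 were lower, namely KRT14 (-3.55), KRT17 (-2.56), CDH1 (-1.43), EPCAM (-1.36), KRT6A (-1.19) and LAMB3 (-0.81). The paper uses low EPCAM with ITGA6 to mark basal cells and reports a shift of HSF1-pLVX cells towards them. The falling sum is therefore no measure of basal identity. The 4 endothelial markers summed to 1.93 and 3.03 CPM in wild type and 13.1 and 14.3 CPM in HSF1-pLVX cells, of which KDR made up 12.6 CPM on average, and the 8 fibroblast markers summed to at most 15 CPM in any library, with DCN at 1, 3, 94 and 87 counts. The part of these shifts in the changes of antisense genes was not tested. Blood markers stayed under 0.65 CPM in sum, with 2 of 5 at 0 in every library. The 3 luminal markers gave 15.7 to 16.8 CPM in wild type and 14.1 to 19 CPM in HSF1-pLVX cells. Within that sum ESR1 was higher (log2 fold change 1.65), FOXA1 was lower (-0.81) and PGR was at 0 in every library.

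An antisense RNA is transcribed from the DNA strand opposite to another gene, and most such RNAs are not known to encode protein. Many start close to the promoter of the partner and are read away from it, because promoters of mammalian genes often fire in both directions. Others begin downstream of the partner and run into its end, or lie within its introns. Individual antisense RNAs are known to raise or lower the expression of their partner, to act on distant genes, or to have no known function, so their level need not follow that of the partner. Among the 261 genes, 255 are annotated as long non-coding RNA, 4 as pseudogenes and 2 as protein coding (MMP24-AS1 and TOPORS-AS1, older names still used in the authors' table).

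By arrangement, 74 antisense genes stood head to head with the partner. Here this means opposite strands and starts within 1000 bases of each other, whether or not the gene bodies overlap. In 44 the 5' ends overlapped over a longer distance, in 59 the 3' ends overlapped, 55 lay wholly inside the partner and 22 surrounded it. The other 5 lay on the opposite strand without contact. Head-to-head pairs whose gene bodies do not touch leave a short stretch between the 2 starts, which both promoters share. These stretches are shown for 4 such pairs, because they hold the DNA just before both start sites. The bases are those of hg38, the build of the count table, and capitals mark CG dinucleotides and the letters CCAAT or, on the other strand, ATTGG, the core of the NF-Y site. The pairs were taken after their values had been seen.
RASAL2-AS1 and RASAL2, chr1:178093985-178094103, plus strand: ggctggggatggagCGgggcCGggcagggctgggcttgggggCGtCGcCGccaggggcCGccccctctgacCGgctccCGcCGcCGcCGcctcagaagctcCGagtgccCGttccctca
SCAMP1-AS1 and SCAMP1, chr5:78360508-78360582, plus strand: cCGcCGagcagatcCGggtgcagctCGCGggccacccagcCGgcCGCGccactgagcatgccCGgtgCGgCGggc
PRKCQ-AS1 and PRKCQ, chr10:6580302-6580418, plus strand: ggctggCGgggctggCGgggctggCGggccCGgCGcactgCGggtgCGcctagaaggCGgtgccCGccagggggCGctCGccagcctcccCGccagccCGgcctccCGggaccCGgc
SAP30L-AS1 and SAP30L, chr5:154445851-154445956, plus strand: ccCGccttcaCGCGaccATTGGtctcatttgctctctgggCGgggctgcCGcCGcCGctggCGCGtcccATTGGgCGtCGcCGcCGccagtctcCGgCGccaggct
For PRKCQ-AS1 the 117 bases between the starts hold 15 CG dinucleotides at a GC content of 84.6%. The SCAMP1-AS1 stretch of 75 bases holds 11 and the SAP30L-AS1 stretch of 106 bases holds 15. For RASAL2-AS1, 119 of the 156 bases are shown, since the rest is exonic in a newer gene release, and they hold 13. The 2-unit heat shock elements GAANNTTC and TTCNNGAA, to which HSF1 binds, are in none of the 4 stretches, and ATTGG is in the SAP30L-AS1 stretch only. Over 300-base promoter windows from RefSeq (GRCh38.p14, 250 bases before to 50 after the start), 191 antisense genes could be matched. GAANNTTC on either strand was in 8 of them (4.19%, against 6.77% of all 35116 promoters) and TTCNNGAA in 8 (4.19% against 7.74%). A 3-unit heat shock element was in 0 of 191 and in 0.49% of all promoters, and CCAAT was in 54 (28.3% against 34.6%). A match or its absence describes the letters of these windows only.

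Antisense genes were weakly expressed. The 165 that held 20 counts in all 4 libraries had a median level of 3.04 CPM, against 26.3 CPM for the 12498 genes of the table that met the same limit. Per length, the antisense gene was above its partner in 22 of 149 pairs where both could be tested, and the median log2 ratio of level per kb was -2.28. The highest level per kb was that of IGFL2-AS1, with 16.2 CPM per kb over the 4 libraries, followed by FGD5-AS1 with 13.8, PRR11-AS1 with 12.7 and FAM83A-AS1 with 11 CPM per kb. OIP5-AS1, the human counterpart of the cyrano RNA, had the most reads, with 2130 and 2518 counts in wild type and 1737 and 1171 in HSF1-pLVX cells. At the other end, CALML3-AS1 (21, 20, 10 and 4 counts), CYP1B1-AS1 (26, 18, 23 and 20) and ECI1-AS1 (20, 21, 26 and 20) were just inside the count limit, in the order wild type 1 and 2 and HSF1-pLVX 1 and 2. SPRY4-AS1 (19, 25, 6 and 6), USP2-AS1 (5, 6, 19 and 19) and ZNF516-AS1 (17, 12, 26 and 19) were just outside it.

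For the 165 antisense genes with 20 counts in every library the change was tested. In HSF1-pLVX cells 50 were higher and 32 lower, at an adjusted p of 0.05 in edgeR's quasi-likelihood test over all genes, and 83 did not pass. Without HSF1-pLVX replicate 2 the counts were 28 and 18, and DESeq2's Wald test gave 37 and 21. In such bulk samples a change in the share of cells with a transcript and a change in its amount per cell cannot be told apart. At least 2-fold changes were seen for 18 of the higher and 14 of the lower genes. No share of 2-fold changes over all genes was taken, and the shares below are for calls of any size. Over all 15830 tested genes 32.7% were higher and 33.2% lower, and over genes with 20 counts in all libraries 33.4% were higher and 35% lower. Antisense genes were thus called higher about as often as other genes (30.3%) and lower in 19.4%. Weak genes were called less often as a whole. Among genes of the table under 10 CPM that met the count limit, 30.9% were higher and 22.8% lower, and of the 144 antisense genes under 10 CPM, 40 were higher and 24 lower. For the 165 antisense genes the median log2 fold change was 0.16, and for all tested genes 0.02. In 81 of the 82 called antisense genes the CPM values of the groups did not overlap, the exception being ALDH1A3-AS1. The call itself favours such a separation, and the share over all called genes was not taken.

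Among the rises, EPB41L4A-AS1 (chr5:112160526-112164276, plus strand), a host of small nucleolar RNA that lies inside EPB41L4A, was the largest. It held 116 and 122 counts in wild type and 529 and 518 in HSF1-pLVX cells, or 6.36 ± 0.27 and 23.5 ± 3.53 CPM (SD, n = 2), and its log2 fold change was 1.88 (SE 0.14, adjusted p = 2.9e-08). Both HSF1-pLVX libraries were far above both wild type libraries. Its partner EPB41L4A, a protein of the band 4.1 family at the membrane skeleton, moved the other way, from 515 and 425 to 445 and 311 counts (log2 fold change -0.59, adjusted p = 0.00051).

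KLRK1-AS1, which surrounds the gene of the NKG2D receptor of natural killer cells, rose from 23 and 32 to 131 and 100 counts (log2 fold change 1.80, adjusted p = 1.5e-05). The receptor gene KLRK1 itself had 0, 1, 12 and 10 counts and was too low to test. PRR11-AS1, inside the cell cycle gene PRR11, rose from 39 and 39 to 175 and 102 counts (log2 fold change 1.54), and PRR11 rose as well (1.87). HMGA2-AS1, within the gene of a chromatin architectural protein, rose from 68 and 58 to 229 and 175 counts (1.41) beside HMGA2 (1.29). XPC-AS1, whose 3' end overlaps that of the DNA damage sensor XPC, rose by 1.43 and XPC by 0.66 on the log2 scale.

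GABPB1-AS1 starts 449 bases from GABPB1, which encodes a subunit of the GABP transcription factor. The antisense gene rose from 148 and 156 to 507 and 399 counts (log2 fold change 1.31, SE 0.12, adjusted p = 2.8e-07). GABPB1 held 382, 385, 531 and 395 counts and its log2 fold change was 0.00 (SE 0.10). TMEM147-AS1, which starts 434 bases from the endoplasmic reticulum gene TMEM147, rose from 77 and 106 to 341 and 268 counts (1.46), while TMEM147 was lower (-0.68, adjusted p = 1.0e-05). FAM83A-AS1 (1.31), VPS9D1-AS1 (1.30) and PRKCQ-AS1 (1.30) completed the 10 largest rises. PRKCQ-AS1, whose shared stretch with the protein kinase C theta gene is printed above, held 41 and 21 counts in wild type and 94 and 89 in HSF1-pLVX cells, and lost its call without HSF1-pLVX replicate 2 (adjusted p = 0.0923).

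The largest fall was that of IGFL2-AS1 (chr19:46189166-46203083, minus strand), an antisense gene named after a member of the insulin-like growth factor-like family but lying apart from it. Its counts were 893 and 916 in wild type and 279 and 112 in HSF1-pLVX cells, or 48.4 ± 1.22 and 8.36 ± 3.87 CPM (SD, n = 2), with a log2 fold change of -2.50 (SE 0.19, adjusted p = 3.2e-08). The HSF1-pLVX libraries differed from each other but both lay well under the wild type libraries. IGFL2 itself had at most 10 counts in any library.

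CYLD-AS1 starts 765 bases from CYLD, a deubiquitinase that restrains NF-kB signalling. It fell from 92 and 107 to 32 and 20 counts (log2 fold change -2.20, SE 0.25), and CYLD fell from 4005 and 4093 to 2137 and 1565 counts (-1.40). GPRC5D-AS1 fell from 222 and 247 to 85 and 51 counts (-2.06), with the orphan receptor gene GPRC5D at -2.79. PPP1R14B-AS1 (-1.87) and FBXL19-AS1 (-1.79), both head to head with their partners, fell as well. FBXL19-AS1 went from 283 and 307 to 125 and 81 counts, while FBXL19, an F-box protein gene, was slightly higher (0.25, adjusted p = 0.019). SLC44A3-AS1 (-1.61), BAALC-AS1 (-1.34), GATA2-AS1 (-1.23) and PROSER2-AS1 (-1.13) were other large falls. In the plot of CPM by library the groups stand apart for each gene shown, which the choice of the largest called changes favours.

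**Figure D1:**
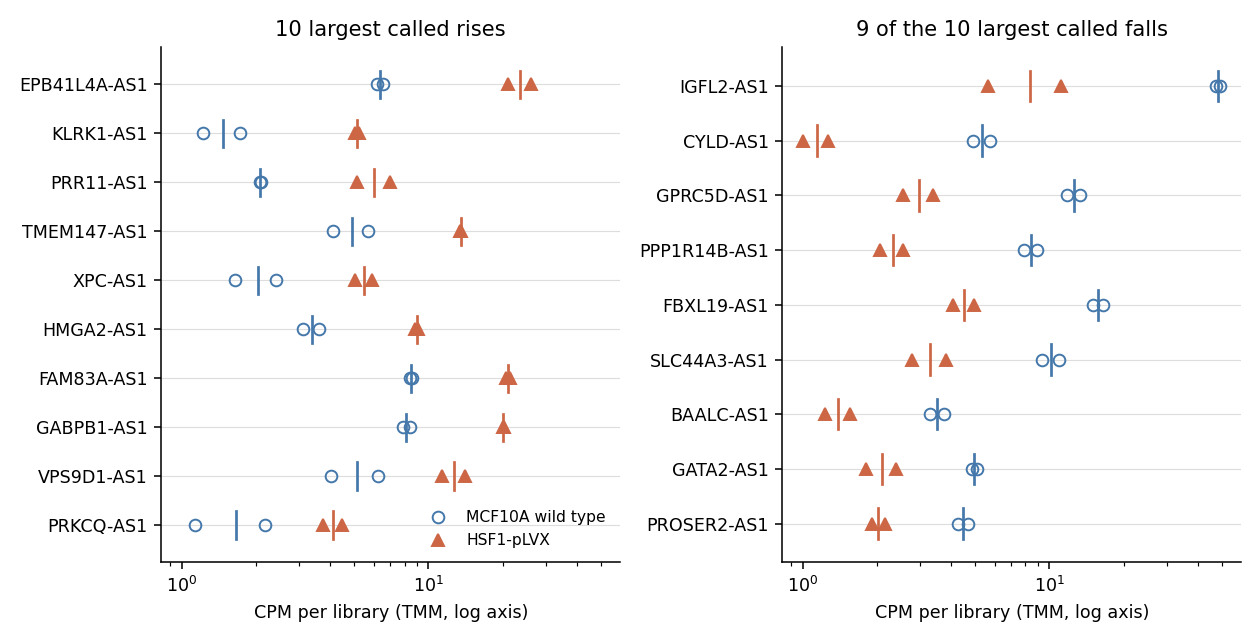
Level of the antisense genes with the largest called rises (left, 10 genes) and of 9 of those with the largest called falls (right), in TMM-scaled CPM on a log axis; circles are the 2 wild type libraries, triangles the 2 HSF1-pLVX libraries and vertical bars the group means. In no gene shown do the groups overlap, which the choice of the largest called changes favours. IGFL2-AS1, at 48.4 CPM in wild type, shows the widest gap between groups.

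Of 30 antisense RNAs listed as well known, 16 were among the 261 and 9 held 20 counts in all libraries. OIP5-AS1 (chr15:41283990-41309737, plus strand) fell to 64 ± 7.23 CPM from 124 ± 15.6 CPM (SD, n = 2; log2 fold change -0.96, SE 0.11, adjusted p = 1.9e-06), and GAS6-AS1 fell by 1.10 on the log2 scale. MCM3AP-AS1 (0.79), MAPKAPK5-AS1 (0.72) and FGD5-AS1 (0.29) were among the 4 that were higher. The calls of FGD5-AS1 (1218, 1162, 1972 and 1545 counts) and MCM3AP-AS1 were lost without HSF1-pLVX replicate 2, at adjusted p = 0.0577 and 0.0828. LOXL1-AS1 (-0.27), TTN-AS1 (-0.12) and PXN-AS1 (0.01) did not pass. FGD5, the partner of FGD5-AS1, was 1 of 2 partners with 0 counts in every library. Among listed genes that reached the limit in 1 group only, HOXB-AS1 held 19, 28, 32 and 32 counts, HOXC-AS1 8, 12, 25 and 34, ZEB1-AS1 13, 17, 44 and 22, and TFAP2A-AS1 33, 41, 37 and 19. Of the highest genes per kb, MMP24-AS1 was lower (-0.40), WAC-AS1 lower (-0.32), SH3PXD2A-AS1 higher (0.49) and PRR34-AS1 lower (-1.08). WAC-AS1 was not called with 5 of the 12 alternatives, among them without either HSF1-pLVX library (adjusted p = 0.163 without replicate 1 and 0.0571 without replicate 2).

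A further 66 antisense genes reached the limit in HSF1-pLVX cells only and 30 in wild type cells only. These had to differ in counts to be chosen, so their values are described without a test. HSF1-pLVX replicate 1 was the deepest library, which makes a limit in raw counts easier to reach there. On the CPM scale 55 of the 66 had both HSF1-pLVX libraries above both wild type libraries. In 26 of the 30 both wild type libraries were above both HSF1-pLVX libraries. The choice itself favours such a separation, and the share over all genes that reached the limit in 1 group only was not taken. In 20 of the 66 and 15 of the 30 the other group had 1 library at or above 20 counts.

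Among those that reached the limit in wild type cells only, TGFB2-AS1 (chr1:218344196-218345678, minus strand) had the highest level. It starts 557 bases from TGFB2, which encodes a transforming growth factor beta ligand, and the gene bodies do not overlap. TGFB2-AS1 held 114 and 127 counts in wild type and 6 and 5 in HSF1-pLVX cells. TGFB2 held 1358 and 1440 counts in wild type and 64 and 30 in HSF1-pLVX cells (log2 fold change -5.17, SE 0.15, adjusted p = 5.1e-12). Both HSF1-pLVX libraries were far below both wild type libraries for the ligand gene and for the antisense gene.

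LIF-AS1, at the 3' end of the cytokine gene LIF, held 53, 55, 11 and 8 counts, and LIF fell by 2.56 on the log2 scale. NR2F1-AS1 (65, 56, 24 and 14 counts) and PAX8-AS1 (55, 50, 16 and 6) lie at genes of transcription factors, of which NR2F1 was lower by -1.39 and PAX8 by -1.58. GSN-AS1 (33, 53, 34 and 16 counts) lies inside the gene of the actin-severing protein gelsolin, which was lower (-1.34). CCDC183-AS1 (57, 34, 14 and 14 counts) had a partner that was not called (-0.21, adjusted p = 0.65). FZD10-AS1, also picked with its values known, had 23, 21, 7 and 4 counts beside a fall of the Wnt receptor gene FZD10 (-1.21). OVOL1-AS1, named here after its values were seen, had 33, 38, 3 and 8 counts inside OVOL1, a transcription factor gene of epithelia, which fell by 3.08. Of all tested partners of antisense genes that reached the limit in wild type cells only, 20 were lower, 1 higher and 7 not called.

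Among those that reached the limit in HSF1-pLVX cells only, MATN1-AS1 held 10, 10, 84 and 66 counts beside a partner of at most 10 counts. DICER1-AS1 (14, 11, 70 and 73 counts) starts 365 bases from DICER1, the endonuclease that makes microRNAs, which was higher by 0.33. KTN1-AS1 held 12, 10, 82 and 59 counts and KTN1 was higher by 0.43. THBS3-AS1 (18, 40, 85 and 65 counts) and SRD5A3-AS1 (17, 13, 81 and 44) had partners that were higher by 0.99 and 1.14. FOXD2-AS1 held 18, 20, 61 and 56 counts, and FOXD2, a forkhead transcription factor gene, was not called (0.73, adjusted p = 0.077). TMPO-AS1, head to head with the gene of the nuclear envelope protein TMPO, held 7, 4, 46 and 32 counts, and TMPO was higher by 1.25.

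In 2 antisense genes, named after their values were seen, both wild type libraries were at 3 counts or fewer. NGFR-AS1 had 0 and 0 counts in wild type and 23 and 22 in HSF1-pLVX cells, at least 6.3-fold higher when 3 counts per library are taken for wild type. Its partner NGFR, the neurotrophin receptor p75, went from 29 and 23 to 4519 and 3654 counts (log2 fold change 7.02, adjusted p = 1.5e-13). LOXL2-AS1, inside the gene of the collagen-crosslinking enzyme LOXL2, had 2, 1, 50 and 39 counts, at least 12.3-fold higher, and LOXL2 was higher by 2.75. Partners did not always rise with antisense genes that reached the limit in HSF1-pLVX cells only. Of their tested partners 34 were higher, 13 lower and 12 not called.

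The sense partners were tested in the same fit, and 236 of 259 could be tested, with 78 higher (33.1%), 93 lower (39.4%) and 65 not called. At least 2-fold changes were seen in 23 and 33 of them, with no such share taken over all genes. The median log2 fold change of the partners was -0.05. Partners of antisense genes above the limit in all libraries were higher in 43 and lower in 60 of 149. Where the antisense gene was above the limit in HSF1-pLVX cells only, 34 of the 59 tested partners were higher and 13 lower (57.6 and 22%). Where it was above the limit in wild type cells only, 1 of 28 was higher and 20 were lower (3.57 and 71.4%). These 2 sets of partners are described only, because their antisense genes had to differ in counts to be chosen, most of the gene bodies overlap (237 of 259 pairs) and partner reads may have entered the counts that made the choice.

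Among functional groups of partners, drawn up by hand with earlier results known, the small group of cell cycle, DNA replication and repair genes had 5 of 6 higher and 0 lower (among them CCDC18, KIF9, OIP5 and TMPO, with MCM3AP at 0.19 and an adjusted p of 0.063), where 32.7% of all tested genes were higher and 33.2% lower. Their antisense genes did not share that direction, with 3 higher (CCDC18-AS1 and MCM3AP-AS1 among them) and 2 lower (OIP5-AS1 and KIF9-AS1) of 5 tested. Of 27 transcription factor genes 6 were higher and 11 lower (median log2 fold change -0.19), and of their 14 tested antisense genes 3 were higher and 1 lower. Of 15 tested adhesion, cytoskeleton and matrix genes, a loose group that also holds the F-box gene FBXL19, 3 were higher and 7 lower (median -0.27), with 5 antisense genes higher and 3 lower of 14. For 11 metabolism and transport genes, a group that also holds the proteasome genes PSMA3 and PSMG3, 4 were higher and 3 lower (median -0.06), with 4 antisense genes higher and 4 lower of 13. The shares of all these groups rest on few genes, with the fewest in the cell cycle, DNA replication and repair group. TMPO in that group is the partner of an antisense gene above the limit in HSF1-pLVX cells only. No group was tested against the share over all genes.

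In 149 pairs both genes could be tested. Both were called in 54 of these, in the same direction in 35 (18 both higher, 17 both lower) and in opposite directions in 19. In 14 of the 19 the antisense gene was higher and the partner lower, and in 5 the reverse held. As a description across pairs, the log2 fold changes had a Pearson r of 0.36 and a Spearman rho of 0.29. Over 3456 other pairs of genes on opposite strands that overlap or start within 1000 bases of each other, the values were 0.297 and 0.24, and of 1407 pairs with both called 869 went the same way (61.8%, against 64.8% for the antisense genes). The genes of a pair share libraries and lie next to each other, and no test was made of these correlations.

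By arrangement, pairs with overlapping 5' ends had r = 0.64 over 18 pairs, and all 4 with both called went the same way, against r = 0.469 and 68.4% the same way in other pairs of that arrangement. Head-to-head pairs had r = 0.35 over 53 pairs, with 12 of 17 called pairs (70.6%) in the same direction, against 0.285 and 61.7%. Pairs with overlapping 3' ends had r = 0.20 over 37 pairs and 60% of 15 the same way, against 0.21 and 55.1%. Genes inside the partner had r = 0.35 over 31 pairs and 53.8% of 13 the same way, against 0.388 and 72.4%. Genes around the partner had r = 0.66 but a Spearman rho of 0.24 over 10 pairs, with 2 of 5 opposite, against r = 0.231 and 60.3% the same way. None of these differences was tested. In 11 pairs whose gene bodies do not touch r was 0.41.

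**Figure D2:**
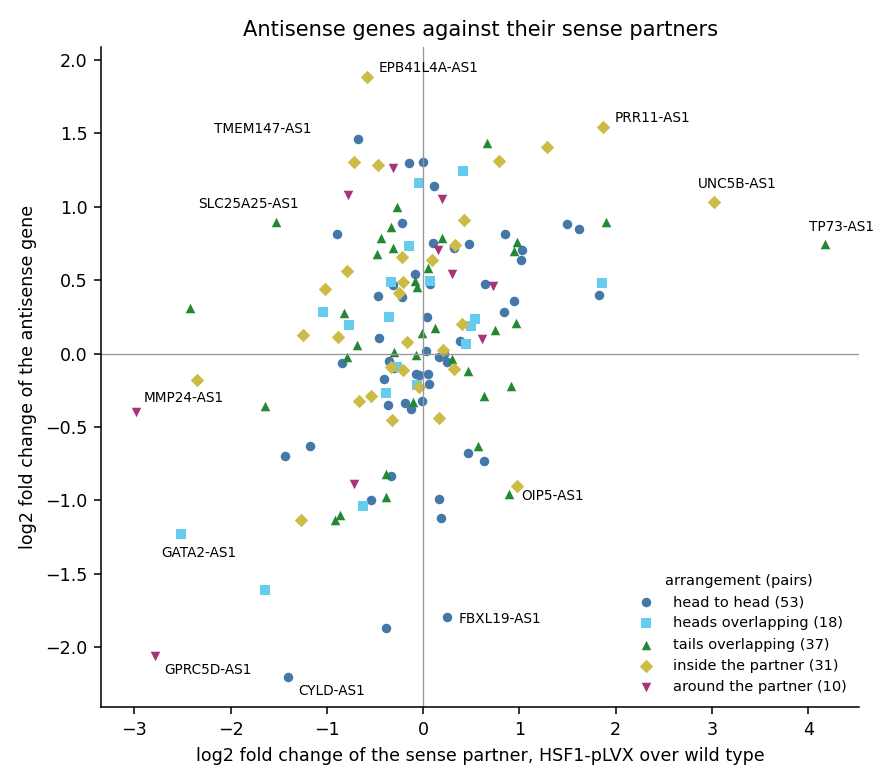
Log2 fold change of the sense partner (horizontal) and of the antisense gene (vertical), HSF1-pLVX over wild type, for the 149 pairs with both genes tested; colour and shape give the arrangement. Points lie on every side of the zero lines, with 18 pairs called higher in both genes, 17 lower in both and 19 in opposite directions.

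Among pairs that fell together were GPRC5D-AS1, SLC44A3-AS1 (176, 204, 96 and 55 counts; SLC44A3, a choline transporter-like gene, at -1.64) and GATA2-AS1 (96, 90, 60 and 36 counts; the transcription factor gene GATA2 at -2.52). GAS6-AS1 fell by 1.10 and GAS6, a ligand of the AXL receptor, by 0.86. Pairs that rose together included CCDC18-AS1 at 0.89 beside CCDC18 at 1.90.

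Opposite directions were seen for OIP5-AS1, which fell while OIP5, a gene of centromere assembly, rose from 21 and 37 to 73 and 57 counts (log2 fold change 0.89, adjusted p = 0.015). SLC25A25-AS1 rose from 175 and 212 to 451 and 413 counts (0.90) while the mitochondrial carrier gene SLC25A25 fell from 397 and 483 to 207 and 161 (-1.53). ZNF407-AS1 rose by 0.81, with the zinc finger gene ZNF407 at -0.90. VPS9D1-AS1 rose from 76 and 116 to 286 and 280 counts with VPS9D1 at -0.72, EMC3-AS1 rose by 1.29 with EMC3 at -0.47, and C10orf95-AS1 by 1.08 with C10orf95 at -0.78. TONSL-AS1, KIF9-AS1 and PSMG3-AS1 were lower by -0.90, -0.63 and -0.73, with the partners TONSL (0.97), KIF9 (0.57) and PSMG3 (0.63) higher, and MMP25-AS1 was higher (0.56) with MMP25 at -0.79. The calls of these last 4 antisense genes were lost without HSF1-pLVX replicate 2, at adjusted p = 0.0815, 0.0615, 0.0747 and 0.155 in that order. TONSL-AS1 and KIF9-AS1 also lost it without HSF1-pLVX replicate 1 (0.152 and 0.121), without wild type replicate 2 (TONSL-AS1, 0.154) or 1 (KIF9-AS1, 0.092) and in DESeq2's Wald test (0.144 and 0.0841). PSMG3-AS1 lost it in DESeq2's test (0.0553) and MMP25-AS1 without wild type replicate 1 (0.0838).

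Whether the antisense gene changed differently from its partner was tested on the log2 ratio of both in each library, with limma over 3810 opposite-strand pairs. The ratio was called in 73 of the 149 pairs, higher in 51 (34.2%) and lower in 22 (14.8%). Over all these pairs, with the gene of fewer counts taken over the other where no antisense member is involved, 31.8% were higher and 21.9% lower. The strongest fall was that of TP73-AS1 (chr1:3735601-3747336, minus strand). In wild type its log2 ratio to TP73, a gene of the p53 family, was 3.69 and 3.47, and in HSF1-pLVX cells 0.35 and 0.11, a difference of -3.35 (SE 0.19, adjusted p = 1.6e-10). TP73-AS1 itself rose from 319 and 306 to 722 and 541 counts (log2 fold change 0.74), but TP73 rose from 23 and 26 to 564 and 500 (4.17).

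UNC5B-AS1 (38, 28, 92 and 71 counts) likewise rose by 1.03 inside the netrin receptor gene UNC5B, which rose by 3.02, so the log2 ratio went from -2.67 and -3.01 to -4.71 and -4.95. SPAG5-AS1 (0.40, adjusted p = 0.27) and TNS2-AS1 (0.48, adjusted p = 0.088) were not called while the spindle gene SPAG5 and the tensin gene TNS2 rose by 1.83 and 1.86. For FBXL19-AS1, OIP5-AS1, TONSL-AS1 and PPP1R14B-AS1 the ratio fell by 2.03, 1.86, 1.80 and 1.44 with a fall of the antisense gene.

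The largest rises of the ratio came in part from partners that fell. MYLK-AS1 (25, 24, 50 and 24 counts) was not called (0.31, adjusted p = 0.41) while MYLK, the myosin light chain kinase gene, fell from 714 and 669 to 181 and 130 counts, and the ratio rose by 2.64 (SE 0.31, adjusted p = 1.4e-06). MMP24-AS1 fell by 0.40 and the metalloproteinase gene MMP24 by 2.99, so that the ratio rose by 2.51. AGAP2-AS1 (114, 84, 115 and 95 counts) was not called beside a fall of AGAP2 by 2.35, with a ratio higher by 2.13. In EPB41L4A-AS1 (2.45), SLC25A25-AS1 (2.41), TMEM147-AS1 (2.14), VPS9D1-AS1 (2.03) and C10orf95-AS1 (1.78) the ratio rose with an antisense gene that rose and a partner that fell.

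**Figure D3:**
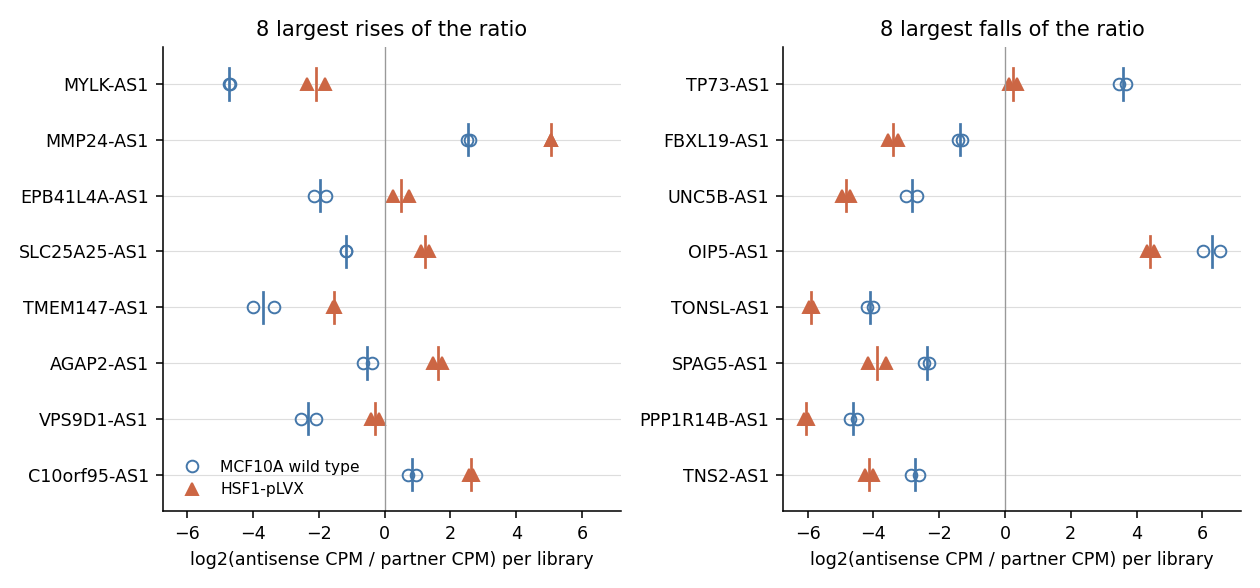
Log2 ratio of antisense CPM to partner CPM in each library for the pairs with the 8 largest called rises (left) and falls (right) of the ratio; circles are wild type, triangles HSF1-pLVX and vertical bars group means, and 0 marks equal CPM. TP73-AS1 went from about 3.47 or more in wild type to 0.35 or less in HSF1-pLVX cells, and EPB41L4A-AS1 crossed from below to above its partner.

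Overlapping genes can share reads, and the strand setting of the counting is not stated in the sources used here. Of 259 antisense genes with a partner, 194 shared exonic bases with it, and 17 of the 261 shared over 50% of their exonic bases with some gene of the opposite strand. HSD17B1-AS1 shared the most with its partner, at 85.2%, followed by AP1G2-AS1 at 83.3%, PITPNA-AS1 at 69.9%, CAMTA2-AS1 at 68.5% and ATP2C2-AS1 at 64.3%. AGAP2-AS1 shared 57.7%, ARHGEF17-AS1 57%, TTN-AS1 55.1%, ZNF337-AS1 53.2% and ELF3-AS1 52.2%, while EPB41L4A-AS1 shared 49.6% and TGFB2-AS1 0%. HSD17B1-AS1 held 44, 37, 58 and 45 counts and was not called (0.08), nor was HSD17B1 (-0.16). In the table as a whole, 824 of 843 genes with at least 95% of their exonic bases covered by opposite-strand exons held 0 counts (97.7%), also where the covering gene was above 10 CPM (349 of 360, 96.9%), against 92% of 1130 genes covered on the same strand. Covered genes of both kinds were thus mostly at 0, so these values do not show that the counting told the strands apart. If the strands were not told apart, a base in exons of both genes may be counted for neither. Partner reads from outside the shared exons, such as intron reads, may still enter the counts of an antisense gene.

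A gene inside another also lies where intron reads of the surrounding gene fall. Long non-coding genes within an intron held a median of 1.69% of the surrounding gene's level per kb when on the opposite strand (586 genes) and 2.27% on the same strand (361 genes), and processed pseudogenes 0.853 and 1.55%. The 55 antisense genes inside their partner held a median of 29.3%, but a minimum of 20 counts was asked of them and not of the others. GSN-AS1 stood at 1.12% of GSN, a value of the size found in other opposite-strand genes, while AGAP2-AS1 stood at 494% and EPB41L4A-AS1 at 184% of their partners. The part of partner reads in the changes of antisense genes was not tested. In the 20 tested pairs that overlap without a shared exon, the fold changes had r = 0.73. Between other genes within an intron and the surrounding gene r was 0.55 over 85 long non-coding genes and 0.20 over 75 processed pseudogenes on the opposite strand, and 0.80 over 66 and 0.40 over 52 on the same strand.

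**Figure D4:**
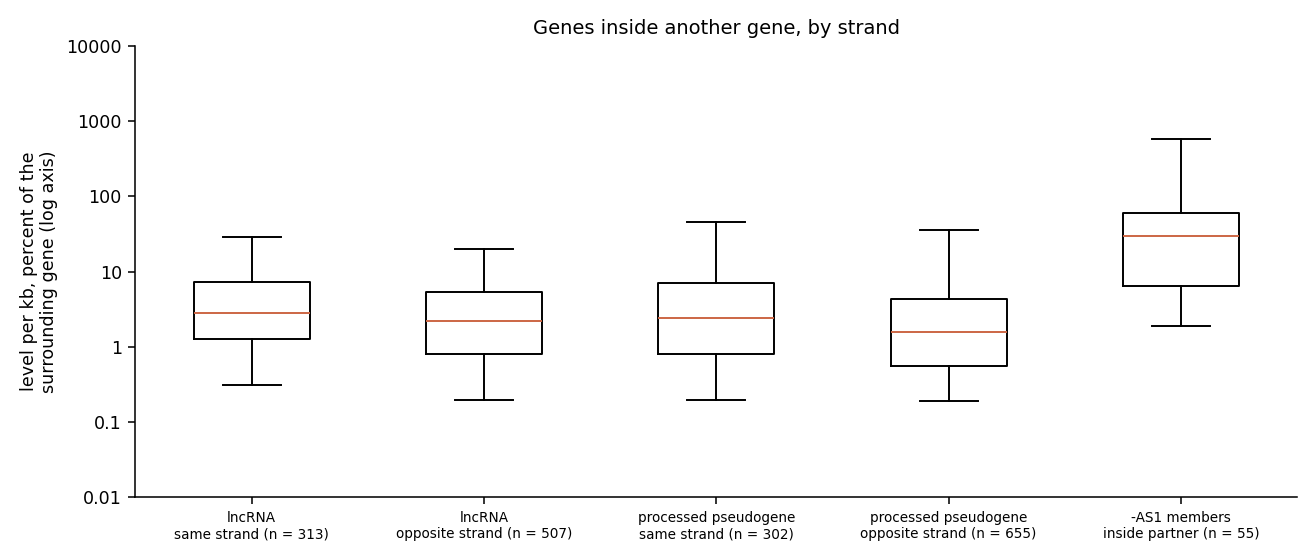
Level per kb of genes that lie inside another gene, as a percent of the surrounding gene on a log axis, for long non-coding genes and processed pseudogenes on the same or the opposite strand and for the 55 antisense genes inside their partner; boxes give quartiles, lines medians and whiskers the 5th and 95th percentiles, without genes at 0 counts. Both strands give similar boxes, and the antisense genes, which had to hold 20 counts, lie higher.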

How the data were processed

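RNA-seq libraries of MCF10A cells, 2 wild type and 2 HSF1-pLVX, were grouped by their labels. The authors aligned paired-end reads to hg38 with HISAT2 2.0.5, used SAMtools 1.13 and counted reads per gene with featureCounts 1.6.5; the deposited raw counts cover 63856 genes and were used as deposited. Strand, overlap and multi-mapping settings are not given in the sources used here. A deposited table of normalized values and fold changes was not used. Identifiers were named from GENCODE release 44 or, for 710 genes, by the older symbol of the authors' table.

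The members and the gene lists were chosen with earlier results of these data known. The main test was edgeR 4.0.16 (R 4.3.3) with TMM, filterByExpr and the quasi-likelihood F test, adjusted by Benjamini-Hochberg over 15830 genes at a threshold of 0.05, without the replicate number. Ratios (prior count 2) were tested with limma 3.58.1 with trend. On simulated counts the share of false calls of the edgeR test was above its nominal threshold, so calls near the threshold are less certain than the adjusted p says. Per-gene standard errors are of the log2 fold change. The p-values measure only the spread between 2 libraries a group, moderated for each gene towards that of all tested genes (edgeR prior degrees of freedom 11.9). The ratio test moderates the spread of each pair likewise. Counts within the wild type and HSF1-pLVX groups differed by more than sampling noise (chi-square per degree of freedom 7.34 and 9.02). An exact permutation test of 2 against 2 cannot go below 0.33. Groups at 3 counts or fewer per library were set to 3 counts for a lower bound, which covers counting error only.

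Named were the 10 largest called rises and falls with 50 counts in the higher group, the highest one-group genes, the 10 highest per kb, the listed known genes, the pairs called together or apart, the 8 largest ratio changes in each direction, the genes at the count limit and those with the most shared exonic bases. Some genes and 1 sequence that this rule names are not reported here. Any other named antisense gene is marked as such, except TOPORS-AS1, named for its annotation, and ALDH1A3-AS1, named as an exception. Sense partners and cell type markers are named as well. Alternatives covered normalization, filter, test (DESeq2 1.42.0, limma voom), replicate block, count limit, symbols, prior count, trend and each library left out.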

Additional observations from a re-analysis of the deposited data

How the results depend on the processing

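For the 165 antisense genes, the DESeq2 Wald test gave 21 lower instead of 32, and 37 instead of 50 higher. A count limit of 50 left 73 genes, with 31 higher and 19 lower, because fewer genes are then tested. Leaving out each library in turn gave 28 to 46 higher and 18 to 33 lower antisense genes, 57 to 76 higher and 61 to 85 lower partners, and 39 to 52 higher and 19 to 22 lower ratios. The lowest counts of antisense genes (28 and 18) and of lower partners (61) came without HSF1-pLVX replicate 2. In those fits the lone library is assumed to vary like the other group. All other settings kept these counts within 1.5 times.

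The labels number the replicates but do not pair the cultures, and deviations of same-numbered libraries from their group means had a correlation of 0.00014 over 15830 genes and -0.111 over the 9492 genes above 8 CPM. With a replicate block 49 antisense genes were higher and 32 lower, 80 partners higher and 85 lower, and 47 ratios higher and 22 lower. A crossed replicate block, added after seeing the data, gave 54 and 32 antisense genes and 84 and 95 partners. Neither block changed the call of any of 51 named antisense genes.

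For these 51, followed through 12 alternatives, 582 of 612 comparisons kept call and direction and 20 lost the call. In 10 the sign of the log2 fold change turned, all in 7 genes not called in either fit and all with a library left out. Over the left-out libraries the value ran from -0.40 to 0.60 for PXN-AS1, -0.35 to 0.15 for TTN-AS1, -0.26 to 0.48 for ATP2C2-AS1, -0.39 to 0.063 for AGAP2-AS1, -0.060 to 0.72 for SPAG5-AS1, -0.11 to 0.61 for MYLK-AS1 and -0.052 to 0.21 for HSD17B1-AS1. Losses came from DESeq2 (4), library size without TMM (1) and left-out libraries (15, of which 8 without HSF1-pLVX replicate 2). The 165 genes were weak, at a median of 3.04 CPM, and the part of depth in their calls was not tested.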
